A study of Homo sapiens with 24 samples.

Results

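The 9 genes described here, TAP1, TAP2, TAPBP, B2M, HLA-E, HLA-F, PSMB8, PSMB9 and PSMB10, belong to MHC class I antigen processing, and were followed in LNCaP cells transfected with 1 of 3 microRNAs or with a scramble control. They are 9 of the 11963 genes that had a probe set annotated to 1 gene on the array. Each gene was read from 1 probe set, the one with the highest mean over all 24 arrays. Of the 9 genes, 7 passed the filter on low signal and were tested among 6782 genes. PSMB8 and PSMB9 lay below it.

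LNCaP cells are an established line from a human prostate cancer. They received 2.5 µg of a plasmid by nucleofection, a form of electroporation, and the plasmid supplied miR-130a, miR-203, miR-205 or scramble; the study asked for the direct targets of the 3 microRNAs. RNA came from 2 sources per transfection: co-immunoprecipitation with AGO2, an Argonaute protein that loads microRNAs and binds the transcripts they recognise, and the whole cell (total RNA). The 8 groups are thus AGO2-bound RNA after miR-130a, miR-203, miR-205 and scramble and total RNA after the same 4 transfections, each with 3 arrays labelled as biological replicates. All groups share the cell line, the nucleofection and a plasmid, and each array received 2 µg of RNA whatever amount had been recovered.

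Cells present samples of their own proteins on the surface as short peptides held by MHC class I molecules. The proteasome cuts the peptides, TAP1 and TAP2 together form the transporter that carries them into the endoplasmic reticulum, and TAPBP (tapasin) bridges that transporter to class I molecules waiting for a peptide. A class I molecule consists of a heavy chain, such as those encoded by HLA-E and HLA-F, and the invariant light chain beta-2-microglobulin, encoded by B2M. PSMB8, PSMB9 and PSMB10 encode the catalytic subunits of the immunoproteasome, which replace the constitutive subunits when cells are exposed to interferon. Interferon is known to raise most genes of this pathway, and loss of class I presentation is well known in prostate cancer.

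The mature microRNAs found in the RefSeq table (GRCh38.p14) are shown because their seed, bases 2 to 8 in capitals, selects the transcripts that AGO2 binds. The hsa-miR-203a-3p sequence lies at chr14:104117469-104117490 on the plus strand and that of hsa-miR-205-5p at chr1:209432166-209432187 on the plus strand.
hsa-miR-203a-3p: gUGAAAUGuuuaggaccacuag
hsa-miR-205-5p: uCCUUCAUuccaccggagucug
The seeds differ from each other.

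TAP1, TAP2, PSMB8 and PSMB9 lie next to each other on chromosome 6, and TAP1 and PSMB9 are known to be transcribed in opposite directions from a shared promoter region. The promoters below, from 250 bases before to 50 bases after each RefSeq start (GRCh38.p14), are shown because TAP1 and B2M were higher in total RNA after miR-130a and miR-203 than after scramble and PSMB9 shares its promoter region with TAP1. The table holds 2 windows for TAP1. The one shown, next to PSMB9, is chr6:32853655-32853954 on the minus strand, the PSMB9 window chr6:32853942-32854241 on the plus strand, and the TAP1 and PSMB9 windows overlap by 13 bases. The B2M window is chr15:44711267-44711566 on the plus strand. Capitals mark matches on either strand to the core of the interferon-stimulated response element, GAAA and GAAA with any 2 bases between them.
TAP1 promoter: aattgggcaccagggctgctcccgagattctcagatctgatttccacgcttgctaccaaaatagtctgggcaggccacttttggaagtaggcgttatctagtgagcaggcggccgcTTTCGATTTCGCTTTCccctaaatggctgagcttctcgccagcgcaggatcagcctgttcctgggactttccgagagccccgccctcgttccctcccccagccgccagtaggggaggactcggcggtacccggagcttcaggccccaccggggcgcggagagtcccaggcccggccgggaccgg
PSMB9 promoter: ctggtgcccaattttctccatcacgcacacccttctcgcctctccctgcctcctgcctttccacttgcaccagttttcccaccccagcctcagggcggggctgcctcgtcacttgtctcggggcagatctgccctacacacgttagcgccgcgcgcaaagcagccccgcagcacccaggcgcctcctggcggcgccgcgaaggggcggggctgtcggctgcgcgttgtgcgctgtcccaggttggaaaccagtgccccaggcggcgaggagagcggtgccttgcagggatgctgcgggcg
B2M promoter: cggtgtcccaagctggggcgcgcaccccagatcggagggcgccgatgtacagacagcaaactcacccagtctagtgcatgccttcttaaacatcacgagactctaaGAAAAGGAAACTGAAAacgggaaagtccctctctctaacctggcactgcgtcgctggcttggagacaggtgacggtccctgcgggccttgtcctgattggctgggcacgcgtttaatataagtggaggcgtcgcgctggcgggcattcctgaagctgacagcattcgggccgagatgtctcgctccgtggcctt
The TAP1 window shown held 2 overlapping matches at window bases 117 to 126 and 123 to 132, and B2M 2 overlapping matches at bases 107 to 116 and 113 to 122, whereas the PSMB9 window and the other TAP1 window (chr6:32852712-32853011, minus strand) held none. Over the 10 windows in the table for 8 of the 9 genes, 7 held this core, as did 3.57% of 35116 promoters of the same length. TTCNNNGAA, the gamma-activated site, was in 2 of the 10 windows and in 7.66% of all promoters. The GC box GGGCGG was in 7 of the 10 windows and in 45.0% of all promoters. None of these motifs overlapped a match to another. A match describes the letters of the window, not a bound site.

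Expression was deposited on a log2 scale, from 2.34 to 14.5, and 39.9% to 41.5% of the 22277 probe sets lay within 0.05 of the lowest value (the floor) on each array, so that changes of dim genes are compressed. The floor took 3 levels, one for the 6 arrays of miR-130a, one for the 6 of miR-203 and one for the 12 of miR-205 and scramble. The arrays of miR-130a and of miR-203 thus appear to have been normalized apart from the scramble arrays, and for these microRNAs normalization run and transfection cannot be told apart. Comparisons of miR-205 with scramble, and of AGO2-bound with total RNA after 1 transfection, lie within a run. Among the total RNA arrays, scramble replicate 1 stood apart on control probe sets, with 18S ribosomal RNA at 4.33 against 2.83 and 3.05 on the other scramble arrays and a GAPDH 3′ minus 5′ difference of 0.99 against 0.68 and 0.64 (log2). The cells fit their label on the prostate luminal markers, of which 7 of the 10 listed were analysed here, and those 7 passed the filter. No leukocyte marker passed it, and 7 of 9 measured leukocyte markers lay at the floor on all 24 arrays, with a list mean of 2.35 to 2.36 on total RNA arrays and 2.35 to 2.38 on AGO2 arrays. Of 8 stromal and endothelial markers, 2 passed the filter and 3 lay at the floor on all 24 arrays.

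In total RNA, each read from 1 probe set, TAP1, HLA-E and B2M rose by 1.25- to 1.92-fold with miR-130a and miR-203. They encode a transporter chain, a heavy chain and the light chain. After miR-205 only HLA-F passed the test, and fell. After miR-130a, 4 of the 7 tested genes rose (TAP1, HLA-E, B2M and TAP2) and 0 fell (limma, adjusted p under 0.05). Of all tested genes, 15.9% rose and 13.3% fell. TAP2 lay close to the floor and was tested through its higher groups, so its call adds no weight to this count. After miR-203, 4 rose (HLA-E, TAP1, PSMB10 and B2M) and 0 fell, beside 19.8% of all genes that rose and 19.8% that fell. After miR-205, 0 rose and 1 fell, HLA-F, beside 10.1% and 13.3% of all genes. The median change of the 7 genes was 0.34 with miR-130a, 0.32 with miR-203 and -0.05 with miR-205, where the medians over all genes were 0.01, 0.01 and -0.01 (log2). Without total scramble replicate 1, 4, 3 and 1 genes were called after miR-130a, miR-203 and miR-205, with B2M lost after miR-203 and HLA-E called in place of HLA-F after miR-205. These 3 comparisons share the scramble arrays. Markers moved beside them: of 7 luminal markers, 0 were called after miR-130a, 3 fell after miR-203 (TMPRSS2 at -1.55, KLK2 at -1.54 and KLK3 at -1.22) and 2 rose after miR-205 (KLK2 by 0.65 and KLK3 by 0.50). Of the 2 tested stromal markers, ACTA2 rose by 0.46 and COL1A1 fell by 0.53 (log2) after miR-130a, both fell after miR-203 and ACTA2 fell after miR-205, and the part of these markers in the results was not tested. In bulk RNA, fewer cells that express a gene and less RNA per cell cannot be told apart. After miR-130a, 54.5% of all calls were rises, and 45.3% after quantile normalization and 40.8% with arrays centred on their median. TAP1, HLA-E, B2M and TAP2 remained called under both. With the mean of all probe sets of a gene, 2 of the 6 genes with a value were called after miR-130a. HLA-E was not among them (limma, adjusted p = 0.068). The B2M call after miR-203 was lost under 5 of 14 alternatives.

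**Figure D1:**
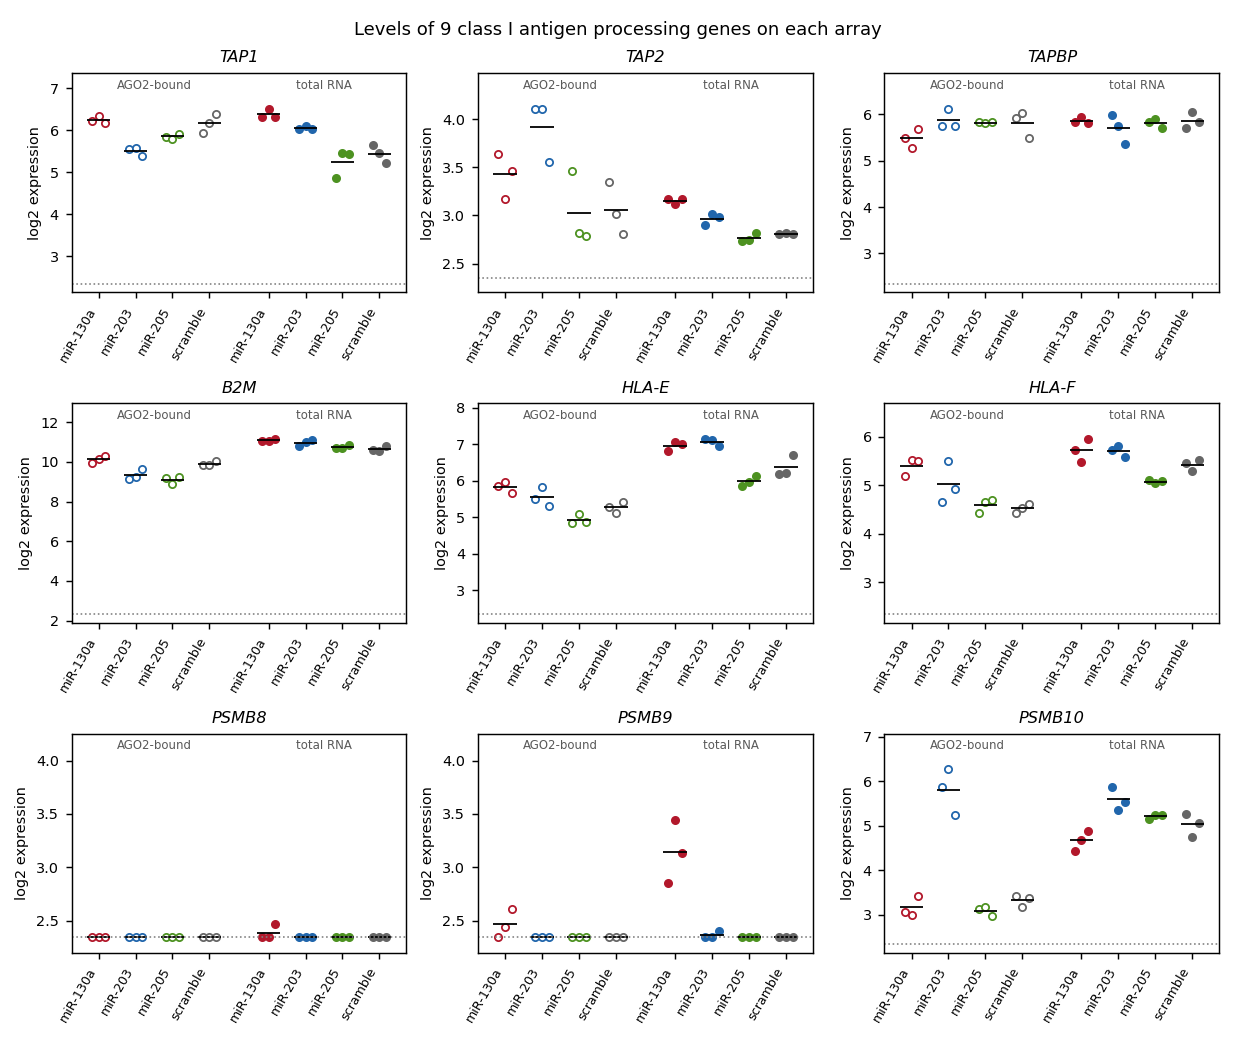
Log2 expression of the 9 genes on each of the 24 arrays, 1 panel per gene, with AGO2-bound RNA as open points on the left and total RNA as filled points on the right; short bars are group means (3 arrays) and the dotted line is the floor. TAP1 and HLA-E in total RNA sit higher after miR-130a and miR-203 than after scramble, PSMB10 in AGO2-bound RNA is high after miR-203, and PSMB8 lies at the floor on 23 of 24 arrays.

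TAP1, one chain of the peptide transporter, measured 6.33, 6.51 and 6.33 in total RNA with miR-130a, 6.03, 6.11 and 6.03 with miR-203, and 4.86, 5.46 and 5.43 with miR-205, against 5.66, 5.45 and 5.23 with scramble (log2). All arrays of miR-130a lay above all of miR-203, and these above all of scramble, while miR-205 and scramble overlapped. The rise was 0.94 ± 0.15 after miR-130a (1.92-fold, adjusted p = 0.00073) and 0.61 ± 0.15 after miR-203 (1.52-fold, adjusted p = 0.0072), and the difference after miR-205 was -0.20 ± 0.15 (adjusted p = 0.39; log2, ± SE, limma, 3 arrays a group). TAP2, the other chain, was close to the floor: 3.17, 3.12 and 3.18 with miR-130a, 2.90, 3.01 and 2.98 with miR-203 and 2.74, 2.75 and 2.82 with miR-205, against 2.81 on each of the 3 scramble arrays. Its order was that of TAP1 and its 3 highest arrays were those of miR-130a. TAP2 rose by 0.34 ± 0.07 after miR-130a (adjusted p = 0.0034), a call that ended when all 24 arrays were fitted together (adjusted p = 0.17). Its scramble arrays had an SD of 0.001, against 0.03 to 0.06 in the other total RNA groups. The scramble and miR-205 means, 2.81 and 2.77, lay below the filter of 2.85, so TAP2 was tested through its higher groups. Its SE and p may thus reflect the low end of the signal more than the spread between replicates. After miR-203 TAP2 differed by 0.15 ± 0.07 (adjusted p = 0.099) and after miR-205 by -0.05 ± 0.07 (adjusted p = 0.70). TAPBP, the bridge between transporter and class I molecule, measured 5.83, 5.95 and 5.81 with miR-130a, 5.99, 5.76 and 5.36 with miR-203 and 5.82, 5.89 and 5.72 with miR-205, against 5.70, 6.06 and 5.82 with scramble. All 4 groups overlapped, and the differences were 0.00 ± 0.14, -0.16 ± 0.14 and -0.05 ± 0.14 (adjusted p = 0.99, 0.40 and 0.85 in that order of microRNAs). Total miR-205 replicate 1 and total scramble replicate 3 gave the identical value 5.8233. Whether this probe set can show a change was not tested.

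B2M, the light chain of every class I molecule, had the highest probe set signal of the 9 genes, which says nothing of its rank in RNA amount. It measured 11.04, 11.07 and 11.14 in total RNA with miR-130a, 10.79, 10.98 and 11.11 with miR-203 and 10.67, 10.68 and 10.86 with miR-205, against 10.60, 10.54 and 10.78 with scramble. The arrays of miR-130a and of miR-203 lay above all scramble arrays, those of miR-203 by a narrow gap. B2M rose by 0.44 ± 0.10 after miR-130a (1.36-fold, adjusted p = 0.0064) and by 0.32 ± 0.10 after miR-203 (1.25-fold, adjusted p = 0.024). The call after miR-203 ended when total miR-203 replicate 2 or 3 or scramble replicate 1 or 2 was left out (adjusted p = 0.063, 0.091, 0.061 and 0.079) and when all 24 arrays were fitted together (adjusted p = 0.086). After miR-205 B2M differed from scramble by 0.10 ± 0.10 (adjusted p = 0.55).

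HLA-E encodes a heavy chain known for presenting leader peptides of other class I molecules to natural killer cells. It measured 6.81, 7.06 and 7.02 with miR-130a, 7.14, 7.11 and 6.95 with miR-203 and 5.85, 5.96 and 6.14 with miR-205, against 6.20, 6.23 and 6.71 with scramble (log2, total RNA). Every array of miR-130a and miR-203 lay above, and every array of miR-205 below, the scramble arrays. The rise was 0.59 ± 0.14 after miR-130a (1.50-fold, adjusted p = 0.0068) and 0.69 ± 0.14 after miR-203 (1.61-fold, adjusted p = 0.0017), and the difference after miR-205 was -0.39 ± 0.14 (adjusted p = 0.055). Without total scramble replicate 1 the last passed the threshold (-0.48, adjusted p = 0.036). HLA-F, another non-classical heavy chain, measured 5.74, 5.48 and 5.95 with miR-130a, 5.73, 5.80 and 5.58 with miR-203 and 5.10, 5.04 and 5.08 with miR-205, against 5.46, 5.29 and 5.52 with scramble. The miR-205 arrays were the 3 lowest and lay close together. HLA-F fell by 0.35 ± 0.11 after miR-205 (1.27-fold, adjusted p = 0.047; 0.055 with the replicate number as a block), a call lost under 12 of 13 alternatives. After miR-130a and miR-203 it differed by 0.30 ± 0.11 (adjusted p = 0.065) and 0.28 ± 0.11 (adjusted p = 0.070).

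The probe sets of HLA-E and HLA-F end in _x_at, the array's mark for probes that can also match other transcripts, and related heavy chains could add to their signal. A second probe set was above the filter for B2M, HLA-E and HLA-F. For B2M it gave 0.77 ± 0.08 after miR-130a (adjusted p = 4.6e-05) and 0.33 ± 0.08 after miR-203 (adjusted p = 0.0082), so that both probe sets gave both rises. The second HLA-E probe set, also _x_at, gave -0.04 ± 0.11 after miR-130a (adjusted p = 0.81), 0.28 ± 0.11 after miR-203 (adjusted p = 0.054) and -0.61 ± 0.11 after miR-205 (adjusted p = 0.0015). The HLA-E rise after miR-130a therefore rests on 1 probe set, and with the mean of its probe sets it was 0.21 (adjusted p = 0.068). The second HLA-F probe set gave 0.00 ± 0.10 after miR-130a (adjusted p = 0.98), 0.55 ± 0.10 after miR-203 (adjusted p = 0.0013) and 0.24 ± 0.10 after miR-205 (adjusted p = 0.11), of which the last has the opposite sign to the first probe set. The third HLA-E probe set, not marked _x_at, had a mean of 2.53 over the arrays and lay below the filter.

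**Figure D2:**
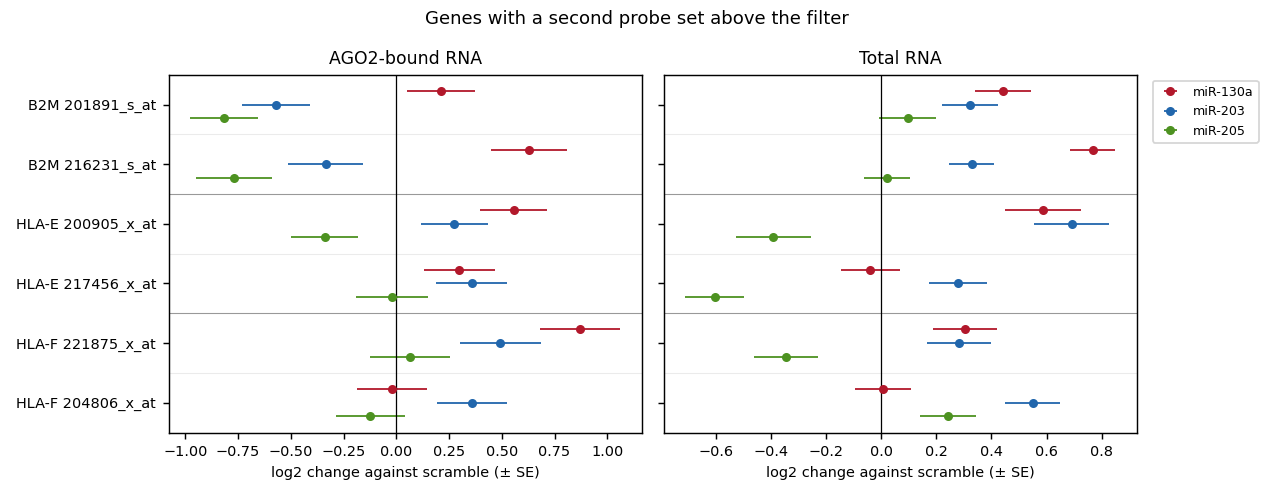
Log2 change against scramble with its SE for the 2 probe sets above the filter of B2M, HLA-E and HLA-F, in AGO2-bound RNA (left) and total RNA (right), 3 arrays a group, coloured by microRNA. The B2M probe sets lie on the same side of 0 in each comparison, while those of HLA-F lie on opposite sides in total RNA after miR-205, at -0.35 and 0.24.

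Of the 3 immunoproteasome genes, only PSMB10 gave signal in every group. PSMB8 lay at the floor on 23 of 24 arrays and measured 2.47 on the other, total miR-130a replicate 3. PSMB9 measured 2.85, 3.45 and 3.13 in total RNA after miR-130a, where 2 arrays of miR-203 and all arrays of miR-205 and scramble lay at the floor and miR-203 replicate 3 measured 2.41. The miR-130a arrays were thus the only total RNA arrays with more than a trace of PSMB9, at 3.14 ± 0.30 (SD, n = 3). Against scramble this is at least 0.75 on the log2 scale, or at least 1.68-fold higher, taking the floor plus 0.05 for scramble. Without the filter on low signal the limma fit over 11963 genes gave an adjusted p of 0.0023. That fit pools the spread of all total RNA groups. The SD was 0.30 after miR-130a, but 0.03 after miR-203 and 0.00 after miR-205 and scramble, where values lay at the floor. The p therefore does not measure the spread of the miR-130a arrays. PSMB10 did not share the pattern of PSMB9. It measured 4.45, 4.69 and 4.89 with miR-130a, 5.88, 5.36 and 5.54 with miR-203 and 5.14, 5.25 and 5.24 with miR-205, against 5.28, 4.75 and 5.07 with scramble. PSMB10 rose by 0.56 ± 0.16 after miR-203 (1.48-fold, adjusted p = 0.014), and the call ended without total miR-203 replicate 1 (adjusted p = 0.057) or scramble replicate 2 (adjusted p = 0.059) and without the filter (adjusted p = 0.050). After miR-130a it differed by -0.36 ± 0.16 (adjusted p = 0.11) and after miR-205 by 0.18 ± 0.16 (adjusted p = 0.46).

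**Figure D3:**
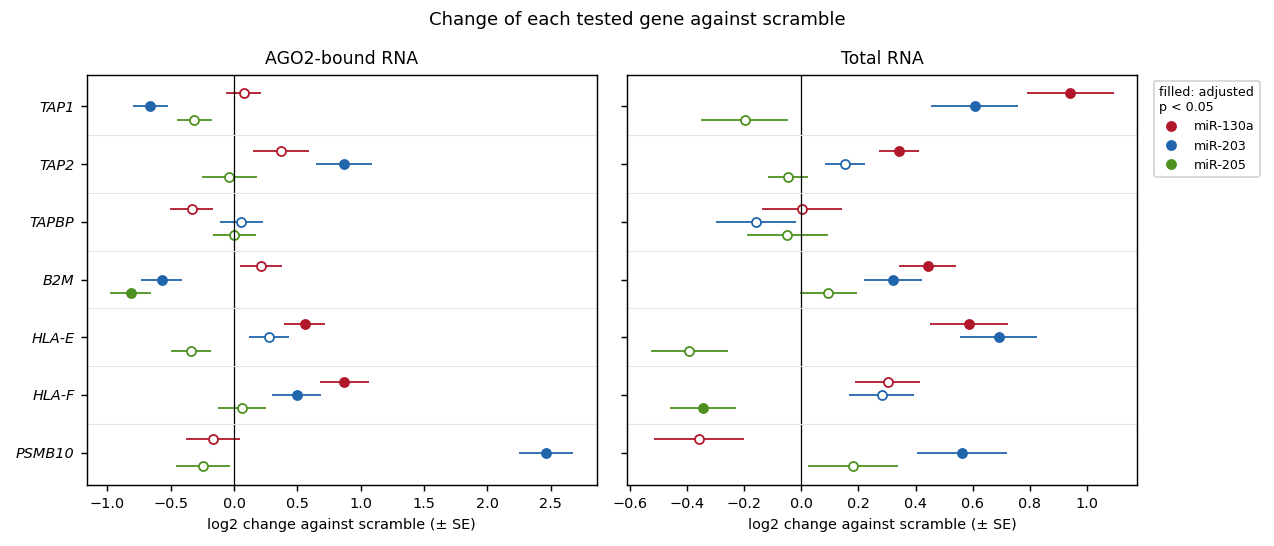
Log2 change against scramble with its SE of the 7 tested genes in AGO2-bound RNA (left) and total RNA (right), for miR-130a, miR-203 and miR-205 with 3 arrays a group; filled points passed an adjusted p of 0.05. TAP1 after miR-203 lies at -0.66 in AGO2-bound RNA and at 0.61 in total RNA, and PSMB10 after miR-203 reaches 2.46 in AGO2-bound RNA.

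Between the microRNAs, total RNA separated miR-130a and miR-203 from miR-205 on TAP1 and the heavy chain genes, and miR-130a from miR-203 on PSMB10. Against miR-205, 6 of 7 genes passed the test after miR-130a, beside 38.8% of all genes: TAP1 at 1.14 ± 0.15, HLA-E at 0.98 ± 0.14, HLA-F at 0.65 ± 0.11, TAP2 at 0.39 ± 0.07 and B2M at 0.35 ± 0.10 were higher and PSMB10 at -0.54 ± 0.16 was lower (log2; adjusted p between 9.1e-05 and 0.017). The B2M call ended without total miR-130a replicate 3 or miR-205 replicate 1 or 2 (adjusted p = 0.058, 0.061 and 0.052) and, like that of TAP2, with all 24 arrays in the fit (0.065 for B2M and 0.094 for TAP2). The PSMB10 call ended without the filter (adjusted p = 0.057) or total miR-130a replicate 1 (0.076), and that of HLA-F with the mean of its probe sets (0.14, adjusted p = 0.13). After miR-203, 4 of 7 passed against miR-205, beside 41.8% of all genes, all of them higher: HLA-E at 1.08 ± 0.14, TAP1 at 0.80 ± 0.15, HLA-F at 0.63 ± 0.11 and TAP2 at 0.20 ± 0.07 (adjusted p between 6.0e-05 and 0.037). Only 2 of 7 passed between miR-130a and miR-203, beside 45.2% of all genes. PSMB10 was lower after miR-130a than after miR-203 by a log2 difference of -0.92 ± 0.16 (adjusted p = 0.00054), and TAP2 was higher by 0.19 ± 0.07 (adjusted p = 0.042). TAP2 is in each of these counts, though its miR-205 mean of 2.77 lay below the filter of 2.85. It was tested through its higher groups, so its calls add no weight to the counts. The TAP2 call for miR-130a against miR-203 was lost under 11 of 13 alternatives and that for miR-203 against miR-205 under 8 of 13 (adjusted p up to 0.42 and 0.40), among them the replicate number as a block, at an adjusted p of 0.060 and 0.054 in that order. Leaving out any 1 of the 6 arrays of miR-130a and miR-203 ended the first, and leaving out miR-203 replicate 2 or 3 or miR-205 replicate 1 or 2 the second. The second HLA-F probe set was lower after miR-130a than after miR-203 (-0.54, adjusted p = 0.0010) and gave -0.24 for miR-130a against miR-205 (adjusted p = 0.088). All of these comparisons span normalization runs. Of all calls for miR-130a against miR-205, 56.5% were rises, and 44.0% after quantile normalization and 44.6% with centred arrays. For miR-130a against miR-203 the share was 52.7%, and 42.6% with centred arrays.

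The related lists had calls in both directions in total RNA. In the list of peptide loading and trimming genes, of which 6 of 8 were tested, 1 rose after miR-130a (TAPBPL, a relative of tapasin, by 0.36 ± 0.09, adjusted p = 0.0098), while 4 fell after miR-203 and 2 after miR-205. PDIA3, the disulfide isomerase of the loading complex, fell by 1.33 ± 0.09 after miR-203 (adjusted p = 6.0e-07), and ERAP1, which trims peptides in the endoplasmic reticulum, fell by 1.37 ± 0.17 after miR-205 (adjusted p = 0.00012) and by 0.49 ± 0.17 after miR-203 (adjusted p = 0.036). The medians of this list were -0.06, -0.27 and -0.03 after miR-130a, miR-203 and miR-205. Among the 4 tested heavy chains and relatives of 10 listed, HLA-C rose by 0.26 ± 0.08 after miR-130a (adjusted p = 0.030), none of the 4 was called after miR-203, and HLA-B fell by 0.30 ± 0.09 after miR-205 (adjusted p = 0.036). The probe sets of HLA-B and HLA-C also end in _x_at. The constitutive catalytic subunits and proteasome activators, 7 tested of 8 listed, had 0 calls with miR-130a and 0 with miR-203, and 2 with miR-205, where PSMB6 fell by 0.48 ± 0.11 (adjusted p = 0.0058) and PSMB5 by 0.38 ± 0.12 (adjusted p = 0.036). Among 6 tested regulators of 10 listed, 2 rose and 0 fell after miR-130a, and 2 rose and 2 fell after miR-203. After miR-205, 0 rose and 1 fell. IRF1, an interferon-induced transcription factor known to activate TAP1 and PSMB9, rose by 1.11 ± 0.11 after miR-130a (adjusted p = 2.4e-05) and by 0.55 ± 0.11 after miR-203 (adjusted p = 0.0024). Its mean was 4.04, 3.48 and 2.81 after miR-130a, miR-203 and miR-205, against 2.93 after scramble. The miR-205 mean of IRF1 lay below the filter of 2.85 and the scramble mean close to it. RFXANK, a subunit of a complex that binds MHC promoters, fell by 1.37 ± 0.10 after miR-205 (adjusted p = 3.3e-06). Of 9 class II genes, 2 were tested, and 1 passed, HLA-DMA, which rose by 0.48 ± 0.15 after miR-205 (adjusted p = 0.033). Listed genes without a value were not analysed here.

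AGO2-bound RNA was compared with AGO2-bound RNA after scramble in the same way. After miR-130a, 2 of 7 genes rose (HLA-F and HLA-E) and 0 fell, beside 18.6% of all genes that rose and 19.9% that fell. The count of rises thus lay near the share over all genes. Each call came from a probe set ending in _x_at, and the second probe set passed for neither gene (adjusted p = 0.94 for HLA-F and 0.19 for HLA-E). With the mean of all probe sets of a gene, 0 genes were called. After miR-203, 3 of 7 rose (PSMB10, TAP2 and HLA-F) and 2 fell (TAP1 and B2M), beside 22.7% and 28.8% of all genes. After miR-205, 0 rose and 1 fell, B2M, beside 20.4% and 23.7% of all genes. The median change was 0.21, 0.27 and -0.24 after miR-130a, miR-203 and miR-205, with -0.05, -0.09 and -0.06 over all genes (log2). The comparisons share the AGO2 scramble arrays. Controls of RNA quality moved with them. The GAPDH 3′ minus 5′ difference was 0.60 to 0.89 on the miR-203 arrays, 1.20 to 1.30 on the miR-130a arrays and 1.38 to 1.72 on the miR-205 arrays, against 1.23 to 1.57 on the scramble arrays (log2). For ACTB it was 2.220 to 2.782 on the miR-130a arrays, 2.299 to 2.929 on the miR-203 arrays and 3.203 to 3.941 on the miR-205 arrays, against 2.932 to 3.838 on the scramble arrays. On ACTB every array of miR-130a and miR-203 thus lay below every scramble array. The part of these controls in the results was not tested. Of the 7 luminal markers, 1 rose after miR-130a, 3 rose and 2 fell after miR-203 and 5 rose after miR-205 (KRT8 by 2.82 and KLK2 by 2.46). Of the 2 stromal markers, 1 rose and 1 fell after miR-130a, 2 fell after miR-203 and 1 rose and 1 fell after miR-205, and their part was not tested either.

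TAP1 in AGO2-bound RNA measured 6.21, 6.34 and 6.18 with miR-130a, 5.56, 5.58 and 5.39 with miR-203 and 5.85, 5.80 and 5.91 with miR-205, against 5.93, 6.17 and 6.40 with scramble (log2). The miR-203 arrays were the 3 lowest and overlapped with no other group. TAP1 fell by 0.66 ± 0.14 after miR-203 (1.58-fold, adjusted p = 0.0013), and differed by 0.08 ± 0.14 after miR-130a (adjusted p = 0.71) and by -0.31 ± 0.14 after miR-205 (adjusted p = 0.082; -0.43 and 0.032 without AGO2 scramble replicate 1). TAP2 measured 3.64, 3.18 and 3.46 with miR-130a, 4.11, 4.10 and 3.56 with miR-203 and 3.46, 2.81 and 2.79 with miR-205, against 3.34, 3.02 and 2.81 with scramble. After miR-203 the mean of TAP1 was thus the lowest and that of TAP2 the highest of the AGO2 groups. TAP2 rose by 0.87 ± 0.22 (1.82-fold, adjusted p = 0.0047), though its miR-203 arrays overlapped with those of miR-130a. TAP2 lay close to the floor here too and was tested through its higher groups, with 2.8118 on both AGO2 and total scramble replicate 3. Its differences after miR-130a and miR-205 were 0.37 ± 0.22 (adjusted p = 0.21) and -0.04 ± 0.22 (adjusted p = 0.92). TAPBP measured 5.48, 5.28 and 5.67 with miR-130a, 5.74, 6.12 and 5.76 with miR-203 and 5.82, 5.80 and 5.82 with miR-205, against 5.93, 6.04 and 5.48 with scramble. Its groups overlapped with scramble and no difference was called (-0.34 ± 0.17 after miR-130a, adjusted p = 0.14), though without AGO2 scramble replicate 3 that after miR-130a was (-0.50, adjusted p = 0.032). TAPBP read exactly 5.8233 on AGO2 miR-205 replicates 1 and 3, as on total miR-205 replicate 1 and total scramble replicate 3. It read 5.7559 on both AGO2 miR-203 replicate 3 and total miR-203 replicate 2. With such repeated values, the lack of a call does not show that TAPBP stayed level.

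B2M in AGO2-bound RNA measured 9.91, 10.15 and 10.28 with miR-130a, 9.13, 9.24 and 9.63 with miR-203 and 9.16, 8.88 and 9.23 with miR-205, against 9.83, 9.85 and 10.03 with scramble. Every array of miR-203 and of miR-205 lay below every scramble array. B2M fell by 0.82 ± 0.16 after miR-205 (1.76-fold, adjusted p = 0.0010) and by 0.57 ± 0.16 after miR-203 (1.49-fold, adjusted p = 0.0097), and differed by 0.21 ± 0.16 after miR-130a (adjusted p = 0.33). Its second probe set fell after miR-205 as well (-0.77 ± 0.18, adjusted p = 0.0038), missed the threshold after miR-203 (-0.34 ± 0.18, adjusted p = 0.14) and rose after miR-130a (0.63 ± 0.18, adjusted p = 0.015). HLA-E measured 5.85, 5.98 and 5.65 with miR-130a, 5.49, 5.83 and 5.32 with miR-203 and 4.83, 5.10 and 4.86 with miR-205, against 5.28, 5.10 and 5.43 with scramble. The miR-130a arrays lay above and the miR-205 arrays below those of scramble. HLA-E rose by 0.56 ± 0.16 after miR-130a (1.47-fold, adjusted p = 0.014), a call that ended without AGO2 miR-130a replicate 2 (adjusted p = 0.063) or AGO2 scramble replicate 2 (adjusted p = 0.066) and on its second probe set (0.30, adjusted p = 0.19). It differed by 0.27 ± 0.16 after miR-203 (adjusted p = 0.17) and by -0.34 ± 0.16 after miR-205 (adjusted p = 0.10). HLA-F measured 5.19, 5.52 and 5.51 with miR-130a, 4.65, 5.49 and 4.93 with miR-203 and 4.42, 4.67 and 4.70 with miR-205, against 4.43, 4.54 and 4.62 with scramble. All miR-130a arrays lay above all scramble arrays, and miR-203 varied widely. HLA-F rose by 0.87 ± 0.19 after miR-130a (1.83-fold, adjusted p = 0.0025), where its second probe set gave -0.02 (adjusted p = 0.94) and the mean of its probe sets 0.28 (adjusted p = 0.055). Its rise of 0.49 ± 0.19 after miR-203 (adjusted p = 0.044) lost its call under 7 of 13 alternatives and its value was 0.26 (adjusted p = 0.22) without AGO2 miR-203 replicate 2.

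PSMB10 showed the widest change of the 7 genes. It measured 3.07, 3.00 and 3.43 in AGO2-bound RNA with miR-130a, 5.88, 6.27 and 5.25 with miR-203 and 3.13, 3.17 and 2.97 with miR-205, against 3.43, 3.19 and 3.39 with scramble. All miR-203 arrays lay far above every other AGO2 array. The rise after miR-203 was 2.46 ± 0.21 (5.52-fold, adjusted p = 6.1e-07) and stayed between 2.23 and 2.74 under 14 alternatives, all of which kept the call. The AGO2 means after miR-130a, miR-205 and scramble were 3.17, 3.09 and 3.34, close to the floor, where changes are compressed. The size of the rise is thus uncertain, and the comparison spans normalization runs. After miR-130a and miR-205 PSMB10 differed by -0.17 ± 0.21 (adjusted p = 0.58) and -0.24 ± 0.21 (adjusted p = 0.39). PSMB9 measured 2.35, 2.44 and 2.61 after miR-130a and lay at the floor on the other 9 AGO2 arrays, as PSMB8 did on all 12.

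In AGO2-bound RNA the related lists also had calls in both directions. Of the proteasome list, 3 rose and 2 fell after miR-203, and 3 rose and 1 fell after miR-205. PSMB6, a constitutive catalytic subunit, rose by 3.43 ± 0.19 after miR-203 (adjusted p = 1.3e-08) and by 2.87 ± 0.19 after miR-205 (adjusted p = 4.4e-08), and PSMB7, the constitutive subunit that PSMB10 replaces, rose by 0.92 ± 0.19 after miR-203 (adjusted p = 0.0011) and by 0.52 ± 0.19 after miR-205 (adjusted p = 0.038). After miR-130a 1 gene of this list rose and 1 fell. In the loading list, 2 rose after miR-130a, PDIA3 by 1.07 ± 0.17 (adjusted p = 0.00020) and TAPBPL by 1.01 ± 0.17 (adjusted p = 0.00025), 2 fell after miR-203, and 2 rose and 1 fell after miR-205, where the chaperone gene CALR rose by 1.13 ± 0.19 (adjusted p = 0.00026). Among the heavy chains, HLA-B rose by 0.73 ± 0.21 after miR-130a (adjusted p = 0.013) and by 0.61 ± 0.21 after miR-203 (adjusted p = 0.024), and 0 of 4 were called after miR-205. Of the regulators, 2 rose and 1 fell after miR-130a, 3 rose and 1 fell after miR-203, and 2 rose and 0 fell after miR-205. IRF1 rose by 2.73 ± 0.23 after miR-130a (adjusted p = 5.6e-07), from a scramble mean of 3.02, close to the floor. NFKB1, a subunit of the transcription factor NF-kappa-B, rose by 1.63 ± 0.23 after miR-203 (adjusted p = 4.8e-05). HLA-DMA, which edits the peptides of class II molecules, fell by 1.05 ± 0.22 after miR-130a (adjusted p = 0.0020) and rose by 1.04 ± 0.22 after miR-205 (adjusted p = 0.0018).

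Set against total RNA from the same transfection, B2M and HLA-E were lower in AGO2-bound RNA after all 4 transfections, and PSMB10 after all but miR-203. Of the 7 genes, 0 were higher and 4 lower after miR-130a, where 33.3% of all genes were higher and 38.3% lower. After miR-203 1 was higher and 4 lower, beside 34.7% and 37.2%. After miR-205 1 was higher and 4 lower, beside 36.6% and 36.1%, and after scramble 1 was higher and 4 lower, beside 35.1% and 37.8%. The median difference of the 7 genes was -0.38, -0.55, -0.48 and -0.74 in that order, and over all genes it was -0.08, -0.03, -0.01 and -0.05 (log2). AGO2-bound arrays held more 18S ribosomal RNA, 7.35 to 9.05 against 2.83 to 4.33 on total RNA arrays, and its part in these differences was not tested. The GAPDH 3′ minus 5′ difference was also higher on AGO2 than on total RNA arrays after miR-130a (1.20 to 1.30 against 0.63 to 0.77), miR-205 (1.38 to 1.72 against 0.80 to 0.81) and scramble (1.23 to 1.57 against 0.64 to 0.99), but overlapped after miR-203 (0.60 to 0.89 against 0.74 to 0.82). The ACTB 3′ minus 5′ difference was higher on AGO2 arrays after those same 3 transfections too. Its ranges were 2.22 to 2.78 against 2.00 to 2.15 after miR-130a, 3.20 to 3.94 against 2.03 to 2.15 after miR-205, and 2.93 to 3.84 against 2.10 to 2.44 after scramble. After miR-203 it overlapped (2.30 to 2.93 against 2.01 to 2.41), though AGO2 replicates 2 and 3 lay above all total RNA arrays. On ACTB every AGO2 array of miR-203 and of miR-130a lay below every AGO2 scramble array. PSMB10 was lower in AGO2-bound RNA after miR-130a, miR-205 and scramble and not called after miR-203, and the part of these controls in that result was not tested. Of the luminal markers, 4 to 6 of 7 were lower and 1 to 3 higher in AGO2-bound RNA, depending on the transfection.

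**Figure D4:**
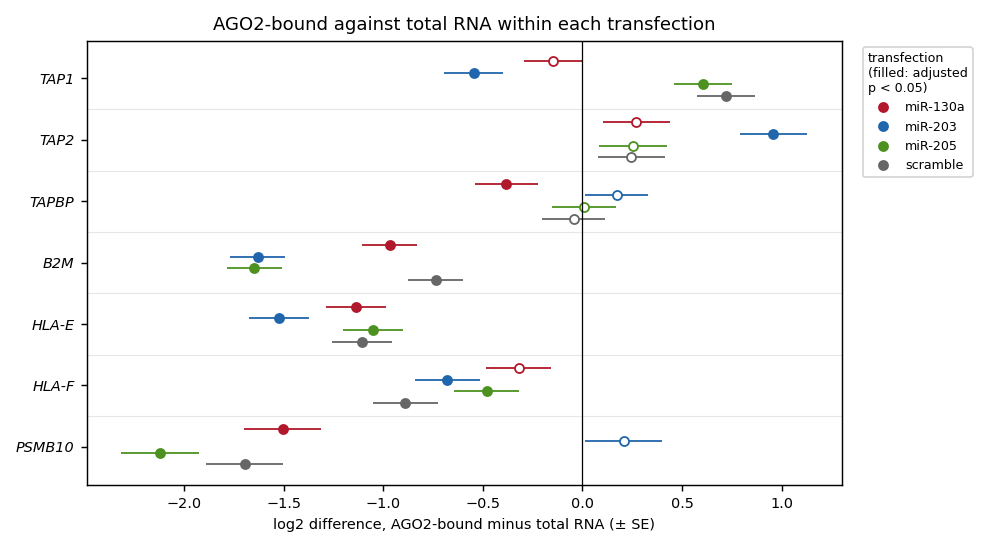
Log2 difference of AGO2-bound minus total RNA with its SE for the 7 tested genes after each of the 4 transfections (3 arrays of each kind); filled points passed an adjusted p of 0.05. B2M and HLA-E lie left of 0 after all 4 transfections, TAP1 lies right of 0 after miR-205 and scramble and left of it after miR-203, and PSMB10 after miR-203 lies at 0.21 while its other points lie between -2.12 and -1.50.

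B2M was lower in AGO2-bound than in total RNA by a log2 difference of -0.97 ± 0.14 after miR-130a, -1.63 ± 0.14 after miR-203, -1.65 ± 0.14 after miR-205 and -0.74 ± 0.14 after scramble (adjusted p between 1.3e-10 and 4.1e-05). For HLA-E the differences were -1.14, -1.52, -1.05 and -1.11 in the same order, each ± 0.15 (adjusted p between 3.0e-09 and 1.1e-06), and in no transfection did its AGO2 arrays overlap with its total RNA arrays. For HLA-F they were -0.32, -0.68, -0.48 and -0.89, each ± 0.16, with an adjusted p of 0.080 after miR-130a (0.035 with the replicate block) and of 0.00067, 0.011 (0.055 without AGO2 miR-205 replicate 1) and 3.0e-05 after the others. PSMB10 was lower, at -1.50 ± 0.19 after miR-130a, -2.12 ± 0.19 after miR-205 and -1.70 ± 0.19 after scramble (adjusted p between 6.7e-10 and 2.3e-07), and after miR-203 the difference was 0.21 ± 0.19 (adjusted p = 0.35). The AGO2 values of PSMB10 after miR-130a, miR-205 and scramble were close to the floor, so the sizes of these differences may be compressed. The list of constitutive proteasome subunits and activators also lay low in AGO2-bound RNA, with 6 of 7 genes lower and 0 higher after miR-130a, 5 lower and 2 higher after miR-203, 4 lower and 2 higher after miR-205 and 6 lower and 1 higher after scramble, and medians of -1.15, -0.72, -0.93 and -1.53 in that order. TAP1 changed sign between transfections. It was higher in AGO2-bound RNA by 0.61 ± 0.15 after miR-205 (adjusted p = 0.00071) and by 0.72 ± 0.15 after scramble (adjusted p = 0.00011), lower, at -0.55 ± 0.15, after miR-203 (adjusted p = 0.0019), and differed by -0.15 ± 0.15 after miR-130a (adjusted p = 0.38). TAP2 was higher by 0.96 ± 0.17 after miR-203 (adjusted p = 2.1e-05) and differed by 0.25 to 0.27 after the other transfections with no call. TAPBP was lower after miR-130a (-0.38 ± 0.16, adjusted p = 0.035), a call that ended without any 1 of 5 arrays of that transfection (adjusted p between 0.051 and 0.16), with quantile normalization and without the filter.

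Subtracting the change in total RNA from that in AGO2-bound RNA asks whether the signal of a transcript changed more or less in AGO2-bound than in total RNA. After miR-203 it was called for 4 of 7 genes, beside 49.1% of all genes: PSMB10 gained 1.90 ± 0.28 (adjusted p = 3.7e-06) and TAP2 0.71 ± 0.24 (adjusted p = 0.016; 0.59 and 0.053 without AGO2 scramble replicate 3) in AGO2-bound beyond total RNA, while TAP1 stood at -1.27 ± 0.21 (adjusted p = 1.9e-05) and B2M at -0.89 ± 0.20 (adjusted p = 0.00054). After miR-130a it was called for 1 of 7 genes, TAP1 at -0.87 ± 0.21 (adjusted p = 0.0019), beside 34.5% of all genes. HLA-F stood at 0.57 ± 0.23 (adjusted p = 0.058). It passed under 4 of 18 alternatives, among them the replicate number as a block (0.57, adjusted p = 0.020), and ranged from 0.18 to 0.68 over them. The second HLA-F probe set gave -0.02 ± 0.20 (adjusted p = 0.94). After miR-205, 1 of 7 was called, B2M at -0.91 ± 0.20 (adjusted p = 0.00053), beside 42.8% of all genes. The second B2M probe set gave -0.79 ± 0.20 after miR-205 (adjusted p = 0.0032) and -0.66 ± 0.20 after miR-203 (adjusted p = 0.0099). These differences share the scramble arrays of both kinds of RNA. They compare relative signals on arrays that each received 2 µg of RNA, and do not measure the amount held by AGO2. Those after miR-130a and miR-203 draw on arrays of different normalization runs.

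Across the 12 total RNA arrays, HLA-E followed the mean of the other tested genes most closely (r = 0.93), before HLA-F (r = 0.83), TAP2 and TAP1 (both r = 0.79) and B2M (r = 0.70), while PSMB10 (r = -0.15) and TAPBP (r = -0.21) did not. Across the 12 AGO2 arrays the values were 0.69 for TAP2 and for HLA-E, 0.54 for HLA-F, 0.20 for PSMB10, 0.00 for B2M, -0.09 for TAPBP and -0.41 for TAP1. The genes outside the 9 that lay closest to the mean of the 7 were TMT1A, PNRC2, ZBED1, MIIP and IFITM2 in total RNA (r between 0.95 and 0.96) and TP53TG1, RTRAF, TUBGCP5, IFRD1 and COX6A1 in AGO2-bound RNA (r between 0.94 and 0.96). IFITM2 is an interferon-induced membrane protein. The 12 arrays form 4 groups from 3 normalization runs, and these correlations are descriptions.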

How the data were processed

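The authors deposited log2 expression values per probe set of 24 Affymetrix arrays (the labels name their type). Per the submitters' processing notes, R 2.9.0, GCRMA and RMA were used, with no order or role given; no step was repeated here. Of 22277 probe sets, 19064 had 1 gene symbol in the platform annotation, 1043 several, 2108 were unnamed here and 62 were controls; 19052 symbols matched a RefSeq gene table and 0 changed. A gene was read from the probe set whose mean over the 24 arrays was highest, and was tested only where that mean reached 2.85, the median over all probe sets. Linear models (lmFit, eBayes; limma 3.58.1, R 4.3.3) were fitted to the 12 arrays of AGO2-bound RNA and to the 12 of total RNA apart, and to all 24 where both kinds of RNA were compared, with Benjamini-Hochberg adjustment over 6782 genes and a threshold of 0.05. The fit was tested on simulated data.

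The named genes are the 9 chosen genes and, of each related list, at most 4 with the smallest p per comparison. These genes and the lists were chosen with earlier results of these data known. For arrays no sequencing depth applies, and 3 arrays a group limit the precision. The labels name no separate cultures, so p-values cover only the array-to-array spread, which may be technical.

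Replicate numbers 1 to 3 recur in each group. Deviations of same-numbered AGO2 arrays from their group means correlated at 0.11 to 0.52 between miR-130a and scramble and at 0.16 to 0.58 between miR-203 and scramble, by which the numbers pair them, a hint from the values rather than the design. Between miR-205 and scramble (-0.04 to 0.52), among total RNA groups compared with scramble (-0.10 to 0.05) and between AGO2-bound and total RNA (-0.14 to 0.19) they did not. Alternatives changed the filter, the probe sets, the scaling, the spread prior, the arrays fitted, the replicate block and each array in turn. A motif search covered both strands of RefSeq promoter windows.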

Additional observations from a re-analysis of the deposited data

Results flagged for a closer look

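In 6 cases the change against scramble differed between AGO2-bound and total RNA in a test of the difference itself (limma interaction, adjusted p under 0.05). After miR-203, PSMB10 had a log2 difference of 1.9 and TAP2 of 0.71 (0.59, adjusted p = 0.053, without AGO2 scramble replicate 3), both higher in AGO2-bound RNA, while TAP1 had -1.27 and B2M -0.89. After miR-130a TAP1 had -0.87, and after miR-205 B2M had -0.91. The case within 1 normalization run is that of B2M after miR-205.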

How the results depend on the processing

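Over 1597 gene values under the alternatives named with the methods, 1501 kept their direction and side of the threshold, 69 lost a call, 27 gained one and 0 called values reversed. The number of the 7 genes called moved by more than 1.5 times as follows. With the mean of all probe sets of a gene, where 6 of the 7 have a value (TAP2 has none), 2 were called in total RNA after miR-130a against scramble and 0 in AGO2-bound RNA. Without probe sets ending in _x_at, 5 genes have a value, and 0 were called in AGO2-bound RNA after miR-130a, 2 for miR-203 against miR-205, and 3 each for AGO2-bound against total RNA after miR-203, miR-205 and scramble. In total RNA after miR-205, 0 were called without the filter, without _x_at probe sets, with quantile normalization, centring, all 24 arrays or the replicate block. Between miR-130a and miR-203, 1 was called with quantile normalization, centring, an intensity trend with a robust prior, all 24 arrays or the replicate block. For the difference of changes after miR-130a, 2 were called with centring or the replicate block. The cause of these moves was not tested, apart from the fewer genes left without _x_at probe sets and with the mean of all probe sets.

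Leaving out 1 array at a time gave, in total RNA against scramble, 4 to 5 calls after miR-130a, 2 to 4 after miR-203 (2 without total scramble replicate 2) and 0 to 2 after miR-205. It gave 1 to 1 for miR-130a against miR-203, 5 to 6 for miR-130a against miR-205 and 3 to 5 for miR-203 against miR-205. In AGO2-bound RNA against scramble it gave 1 to 3 after miR-130a, 4 to 5 after miR-203 and 1 to 2 after miR-205. AGO2-bound against total RNA gave 3 to 4 after miR-130a, 5 to 6 after miR-203, 4 to 5 after miR-205 and 5 to 5 after scramble, and the difference of changes 1 to 2, 3 to 5 and 1 to 1 after miR-130a, miR-203 and miR-205.

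Testing each probe set on its own, an alternative chosen after seeing the data, reversed HLA-E in total RNA after miR-130a against scramble (-0.040, adjusted p = 0.81), and HLA-F in AGO2-bound RNA after miR-130a (-0.020) and in total RNA for miR-130a against miR-203 (-0.54), for miR-130a against miR-205 (-0.24) and for miR-205 against scramble (0.24). The replicate block changed the calls given in the text and that of B2M for miR-203 against miR-205 (0.23, adjusted p = 0.045), and no other call of the 7 genes. PSMB8, at the floor on nearly all arrays, is beyond what the signal over background can show.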
